A study of Mus musculus with 6 samples.

Results

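The cytosolic ribosomal proteins described here are the protein parts of the ribosome outside mitochondria, read as mRNA in sorted mouse bone marrow cells of the red cell lineage. Their genes were taken by symbol: Rpl or Rps followed by a number, with an optional letter, plus Rplp0, Rplp1, Rplp2 and Rpsa, without the Rps6k kinases, Rps19bp1 and pseudogenes. Probe sets, groups of short oligonucleotides that together read a transcript, were assigned to genes through the platform annotation, and those carrying several gene symbols were kept apart. This gave 45 genes with a probe set of their own out of 18192 genes on the array, 24 of the large subunit and 21 of the small subunit. Another 28 ribosomal protein genes, such as Rpl5, Rpl10 and Rps23, were read only by probe sets that also carry a pseudogene or a near-identical copy. Both kinds together covered 73 genes. One symbol that matched the pattern, Rps4l, was left out because RefSeq lists it as a pseudogene.

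The study compared Rb-null with control mice on 6 Affymetrix arrays, 3 in each group. Rb-null animals were EpoR-GFPcre/+; Rb fl/fl, and controls were EpoR-GFPcre/+; Rb fl/+. Both groups therefore carried the Cre recombinase fused to a green fluorescent protein and driven by the erythropoietin receptor gene, which is used mainly in red cell progenitors, and the controls carried a floxed Rb allele too. RNA came from bone marrow sorted by 2 surface proteins, the transferrin receptor CD71 and the red cell antigen Ter-119. The age of the animals, and whether any were pooled, were not stated in the labels used here. Arrays of the 2 groups share replicate numbers 1 to 3, and arrays of the same number deviated together, so differences are also given per pair of arrays.

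Each ribosome holds 1 copy of nearly every ribosomal protein beside its ribosomal RNAs, and cells make the proteins of both subunits in matched amounts. Their mRNAs are among the most abundant in growing cells, and most begin with a run of pyrimidines, the 5' terminal oligopyrimidine (TOP) tract, through which the kinase mTOR and the RNA-binding protein Larp1 control their translation. Red cell precursors depend on a high rate of translation to make globin. Loss of 1 copy of RPS19, RPL5 or RPL11 in humans causes Diamond-Blackfan anaemia, and loss of RPS14 contributes to the anaemia of the 5q- syndrome.

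TOP tracts were looked for in the RefSeq promoter windows of the mouse build GRCm38.p6, which run from 250 bases before to 50 after an annotated start. Of the 45 genes, 40 had such a window. The string CTTTC, a core that many TOP tracts hold, was searched on the strand of the gene from 20 bases before to 50 after the start. It was found for 19 of the 40 ribosomal protein genes (47.5%), against 2803 of 27025 genes with a window (10.4%), and for 14 of 22 large subunit genes and 5 of 18 small subunit genes. Those of 6 genes among the ones described below are shown first so that the tracts can be compared, each as 30 bases written 5′ to 3′ on the strand of the gene with CTTTC in capitals.
Rpl37 (chr15:5116633-5116662, plus strand): cgggggtgCTTTCtcttccggtctctttgg
Rpl35 (chr2:39005115-39005144, minus strand): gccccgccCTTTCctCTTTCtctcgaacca
Rpl10a (chr17:28328578-28328607, plus strand): tctgccttCTTTCcggtttccgcggcagcc
Rpl38 (chr11:114668572-114668601, plus strand): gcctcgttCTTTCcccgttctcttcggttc
Rpsa (chr9:120127780-120127809, plus strand): cgcccgtcCTTTCgcgctacccggggacgg
Rps19 (chr7:24884612-24884641, plus strand): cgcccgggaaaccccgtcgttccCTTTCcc

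The first C of CTTTC lies at base 1 of the annotated transcript in Rpl38, 5 bases before it in Rpl35, and at bases 22 to 44 in Rpl10a, Rpsa, Rpl37 and Rps19. An annotated start is not always the one a cell uses most. In Rpl35 a second copy follows the first after 2 bases.

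Other promoter strings were searched on both strands of the whole 300-base window. CCGGAAG, which Ets factors such as GABP bind, was present for 20 of 40 ribosomal protein genes (50%) and for 2683 of all 27025 (9.93%). AAGATGG, a core of YY1 sites, was present for 7 (17.5%, against 7.28% of all genes), and CACGTG, the E-box of Myc and related factors, for 4 (10%, against 8.09%). No window held a CTTTC that overlapped a CCGGAAG. The tested genes with CTTTC had a median log2 difference of -0.24 (18 genes), and those without it -0.29 (20 genes). The corresponding medians were -0.27 with CCGGAAG (19 genes) and -0.25 without it (19 genes). These are matches of letters in annotated windows, and none is a measured binding or start site.

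Values below are deposited intensities per array on a linear scale. Differences are on the scale of quantile-normalized log2(intensity + 16), Rb-null over control, with the standard error (SE) of the fit. Unless stated, the SE is from the fit without the replicate number, so it does not use the pairing of arrays. The median intensity over all probe sets was 24.5 to 29.5 on Rb-null arrays and 23.3 to 31.2 on control arrays, and precision is limited by having 3 arrays a group. Arrays numbered 3 of either group had high 18S ribosomal RNA control signal, 542 on the Rb-null and 1231 on the control array, against 32.6 to 66.2 on the other 4. Rb1, the floxed gene, read 0.75 higher on the Rb-null arrays (SE 0.31). The position of that probe set within the gene was not available here, so its signal cannot settle whether the labels are right. All directions below follow the labels, which were not checked in another way. Of 9 erythroid markers on the array 8 passed the filter, with sums of 38571 to 45425 in Rb-null and 38274 to 39958 in control cells. The 1-symbol probe set of Hba-a1, an alpha globin, read at most 27.0, whereas Slc4a1, the red cell anion exchanger, read 9114 to 10220. Granulocyte markers were also bright, as S100a8 at 9111 to 12488 shows.

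Most ribosomal protein mRNAs read slightly lower in Rb-null cells, although none passed the test by itself. After a filter on dim signal, 43 of the 45 genes were tested, 22 of the large and 21 of the small subunit. The median intensity over these genes was 2781, 4398 and 2563 on Rb-null arrays 1, 2 and 3, against 3528, 5014 and 3515 on control arrays 1, 2 and 3. It was lower on the Rb-null array of each pair, though the groups overlapped, since Rb-null array 2 lay above control arrays 1 and 3. The median log2 difference was -0.27, against -0.04 over all 13232 genes tested, and the pair medians were -0.33, -0.22 and -0.28.

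No ribosomal protein gene passed limma's test at an adjusted p of 0.05, and neither did any other gene (0 of 13232, percentage called 0). The lowest adjusted p in limma was 1.00 among ribosomal protein genes and 0.106 over all genes. At an unadjusted p under 0.05 there were 1 ribosomal protein gene, Rpl37, which was lower, and 537 genes in all (1.51% of all genes tested lower and 2.55% higher). The direction, by contrast, was shared by most genes. Of the 43 genes 41 had a negative difference (95.3%, against 54.6% of all genes tested). Of these, 35 were lower in each of the 3 pairs (81.4% of the 43, against 24.1% of all genes tested), and 1 gene, Rps27l, was higher in each (18.5% of all genes tested). In 4 genes, Rpl37, Rpl35, Rps14 and Rps7, the normalized groups did not overlap (9.30%, against 4.78% of all genes tested for lower groups). Ribosomal protein mRNAs are made together and were read on the same 6 arrays, so the genes are not independent counts of the difference.

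With the replicate number as a block, limma again called 0 of the 43 and 0 of all 13232 genes, with 15 lower ribosomal protein genes at an unadjusted p under 0.05 (34.9%, against 9.14% of all genes). The lowest adjusted p among them was 0.131 in limma with the block. With the block, a variance trend and robust moderation, limma called Rpl37 (adjusted p = 0.0305), Rpl35 (adjusted p = 0.0327) and Rpsa (adjusted p = 0.0388), all 3 lower (6.98% of the 43, against 1.39% of all genes called lower), and none of the 2.18% of all genes called higher was one of them. The p-values measure only the spread between these arrays, which may be technical, because the labels do not say that the replicates are separate animals. In sorted cells, fewer cells of a kind and less RNA per cell cannot be told apart.

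**Figure D1:**
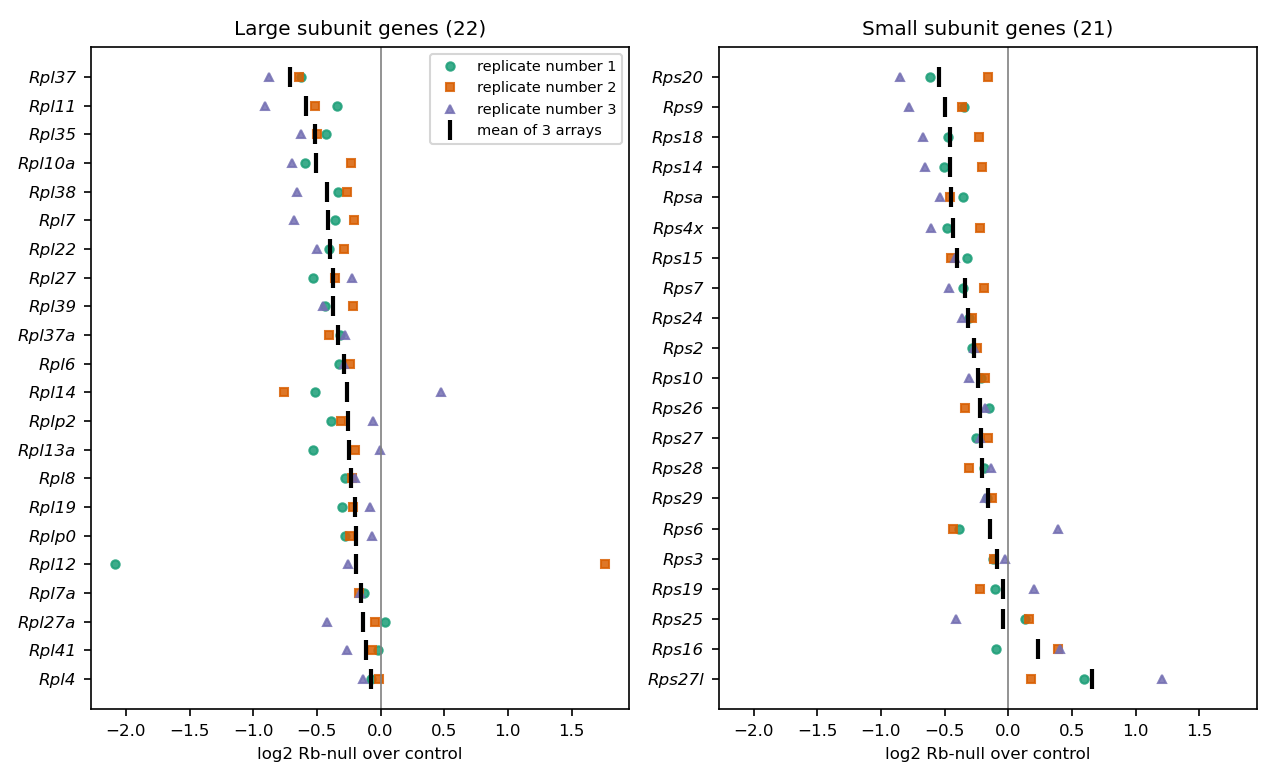
Log2 difference of Rb-null over control for the 22 large subunit genes (left) and the 21 small subunit genes (right) that were tested, 1 row a gene. Coloured points give the pairs of arrays with replicate numbers 1, 2 and 3, the black bar their mean, and the grey line 0. All large subunit bars lie left of 0, and in the small subunit panel Rps16 and Rps27l lie right of it.

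Markers of other cell types are given beside this shift. The summed intensity of 11 granulocyte markers was 26408, 52741 and 32452 on Rb-null arrays 1, 2 and 3, and 35453, 52291 and 40134 on control arrays 1, 2 and 3. It was lower on the Rb-null array in pairs 1 and 3 and nearly equal in pair 2. B cell markers summed to 352, 493 and 547 on Rb-null arrays 1, 2 and 3. On control arrays 1, 2 and 3 they summed to 575, 603 and 909, the higher value of each pair. Ebf1, a defining factor of B cells and the dimmest of these markers, read at most 28.6 on any array, whereas Cd79a reached 307. Macrophage markers summed to 1322 to 1717 in Rb-null and 1667 to 2849 in control cells, lower on the Rb-null array in pairs 1 and 3. T and NK cell markers summed to 345 to 478 in Rb-null and 428 to 466 in control cells, also lower in pairs 1 and 3. Megakaryocyte markers summed to 322 to 376 in Rb-null and 346 to 561 in control cells, lower on the Rb-null array of each pair. Markers of mast cells, basophils and eosinophils summed to 149 to 1183 in Rb-null and 171 to 1395 in control cells. They too were lower on the Rb-null array of each pair. Gene by gene, the median log2 difference was -0.49 for granulocyte, -0.49 for macrophage and -0.32 for B cell markers. It was -0.28 for T and NK cell, -0.29 for megakaryocyte and -0.33 for mast cell, basophil and eosinophil markers. The erythroid median was 0.04 and that of the ribosomal protein genes -0.27. Pair medians of granulocyte markers were -0.89, 0 and -0.60, and those of macrophage markers -0.50, 0.08 and -1.16. Actin control probe sets gave a ratio of 3' over 5' signal of 1.43, 1.10 and 1.01 on Rb-null arrays 1, 2 and 3, and 1.67, 1.15 and 1.18 on control arrays 1, 2 and 3. The actin ratio was thus lower on the Rb-null array of each pair. The same ratio for Gapdh was 1.17, 1.38 and 0.737 on Rb-null arrays 1, 2 and 3, and 1.16, 1.34 and 0.948 on control arrays 1, 2 and 3, lower on the Rb-null array in pair 3 only. The part of these cell markers and of RNA quality in the ribosomal protein result was not tested. Without both arrays numbered 3 the ribosomal protein median was -0.28.

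Other genes above the same brightness cut had a median nearer to 0. Of the 43 genes, 35 had a mean normalized log2 intensity above 10, and their median difference was -0.32, with 34 negative and 33 lower in every pair. Over the 612 other genes above that level the median was 0.05, with 269 negative and 181 lower in every pair. Above the cut, brightness was not matched between these genes and the ribosomal protein genes. The 8 dimmer ribosomal protein genes had a median of -0.17, with 7 negative and 2 lower in every pair. All of these 8 but Rpl37 and Rpl27a read at most 170 on every array.

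**Figure D2:**
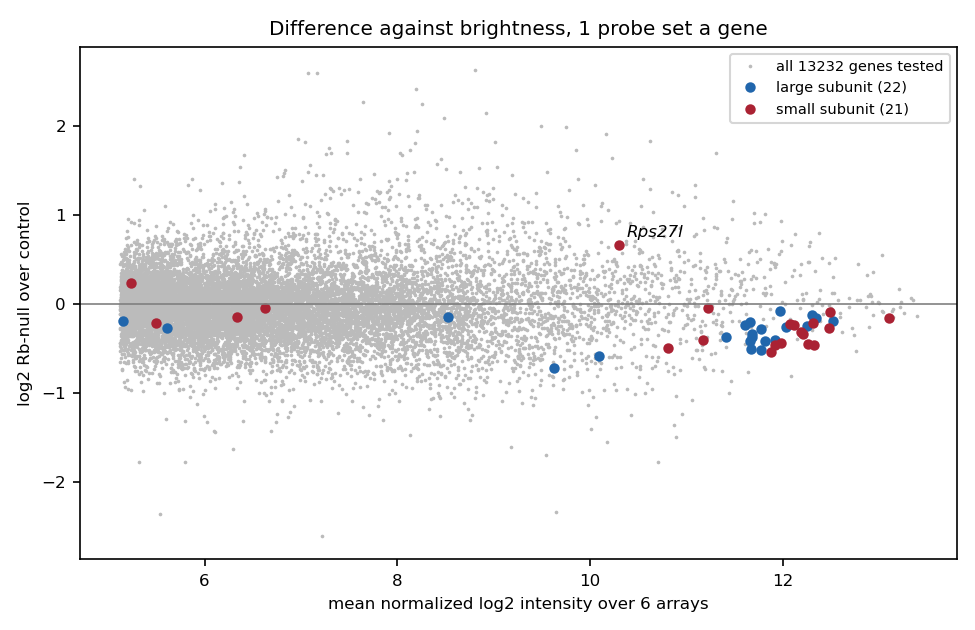
Log2 difference of Rb-null over control against the mean normalized log2 intensity for all tested genes, with the large and small subunit genes marked. Most ribosomal protein genes lie above a level of 10 and below a difference of 0.

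The large subunit carries the peptidyl transferase centre, where peptide bonds form. All 22 tested genes of this subunit had a negative difference, with a median of -0.28 and pair medians of -0.35, -0.23 and -0.27. They ran from -0.71 for Rpl37 to -0.08 for Rpl4, and 19 were lower in all 3 pairs. The genes not lower throughout were Rpl12, Rpl14 and Rpl27a, each with a mean log2 intensity of 10 or less. Rpl12 differed by -2.08, 1.76 and -0.25 in pairs 1, 2 and 3, at intensities of at most 83.5, and gives no usable direction.

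Rpl37, a zinc-binding protein of the large subunit, read 778, 793 and 362 on Rb-null arrays 1, 2 and 3, against 1097, 1192 and 680 on control arrays 1, 2 and 3. Both arrays numbered 3 were the lowest of their group, so the deposited values overlap, whereas after normalization every Rb-null value lay below every control value. The log2 difference was -0.71 (SE 0.31), that is 39.0% lower, with an unadjusted p of 0.0489 in limma and an adjusted p of 1.00.

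Rpl35, which sits near the mouth of the peptide exit tunnel, read 3024, 3529 and 2257 on Rb-null arrays 1, 2 and 3, against 4175, 4839 and 3635 on control arrays 1, 2 and 3. The groups did not overlap on either scale, and the log2 difference was -0.52 (SE 0.26, limma adjusted p = 1.00). All 6 of its probe sets were negative, between -0.69 and -0.10, the last from a probe set that read at most 47.9.

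Rpl10a, a protein of the flexible L1 stalk, read 2412, 4355 and 1975 in Rb-null cells, against 3528, 5014 and 3360 in control cells, each in replicate order. It was lower in each pair and the groups overlapped, with a log2 difference of -0.51 (SE 0.31). Rpl38, which in mouse embryos is needed for the translation of Hox mRNAs, read 2604, 4462 and 2563 in Rb-null cells, against 3251, 5354 and 4136 in control cells. Array 2 was the highest of each group, and the log2 difference was -0.42 (SE 0.28).

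Rpl11 and Rpl5 form, with 5S ribosomal RNA, a particle that binds and inhibits Mdm2, the ubiquitin ligase of p53. Rpl11 read 575, 1675 and 757 in Rb-null cells, against 671, 2197 and 1428 in control cells. It was lower in each pair, by 0.34, 0.52 and 0.91 on the log2 scale in pairs 1, 2 and 3, but replicates of 1 group differed by more than the groups did (log2 difference -0.59, SE 0.49). With the replicate block the SE of Rpl11 was 0.17 and its adjusted p in limma 0.211. Rpl5 was read only together with a pseudogene, and the brightest of its 3 probe sets gave 3904, 6747 and 4241 in Rb-null cells, against 5254, 7624 and 5188 in control cells. Its log2 difference was -0.33 (SE 0.27), again lower in each pair with overlapping groups.

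Rpl22 is a large subunit protein that mice can live without, though its loss impairs their T cell development and raises its paralog Rpl22l1. Rpl22 read 3739, 4468 and 2182 in Rb-null cells, against 5050, 5433 and 3300 in control cells, a log2 difference of -0.40 (SE 0.33). A less bright probe set of Rpl22 read 1252, 1922 and 1159 in Rb-null cells, against 1957, 2668 and 1961 in control cells, and there the groups did not overlap (-0.70, SE 0.27). Rpl22l1 read 781, 1269 and 455 in Rb-null cells, against 1153, 1808 and 884 in control cells, with a log2 difference of -0.73 (SE 0.35, limma adjusted p = 1.00). Both paralogs were thus lower in each pair, and neither passed the test without the block. With the block, a variance trend and robust moderation, limma called Rpl22l1 lower (adjusted p = 0.0269) but not Rpl22 (adjusted p = 0.0577).

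The small subunit decodes the mRNA. Of its 21 tested genes 19 had a negative difference, with a median of -0.24 and pair medians of -0.29, -0.22 and -0.31. They ran from -0.54 for Rps20 and -0.50 for Rps9 to 0.66 for Rps27l, and 16 were lower in all 3 pairs. The large minus small difference of the medians was -0.04 on the log2 scale. Over the alternative settings it lay between -0.16 and 0.02, so its direction was not settled.

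Rps14, a protein of the decoding platform, read 3044, 4398 and 2603 in Rb-null cells, against 4391, 4975 and 4220 in control cells. Rb-null array 2 lay just above 2 of the control arrays on the deposited scale, and the groups separated after normalization, with a log2 difference of -0.46 (SE 0.25, limma adjusted p = 1.00). Rpsa, the component also known as the laminin receptor precursor, read 3377, 5791 and 3648 in Rb-null cells, against 4467, 7915 and 5069 in control cells, a log2 difference of -0.45 (SE 0.29). Its 3 pairs lay close together, at -0.35, -0.46 and -0.54, while the groups overlapped because arrays numbered 2 were the highest in both.

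Rps18, a protein of the small subunit head, read 5205, 5775 and 2645 in Rb-null cells, against 7295, 6830 and 4277 in control cells, a log2 difference of -0.46 (SE 0.35). Its bright probe sets gave -0.54, -0.44 and -0.46. A dim one, which read at most 50.5 on any array, gave 0.23. Only that dim probe set remained when those with an s, x or a ending were left out. Rps7, which like Rpl11 can bind Mdm2, read 3933, 5284 and 3498 in Rb-null cells, against 5080, 6183 and 4611 in control cells. The log2 difference was -0.34 (SE 0.25), with no overlap after normalization.

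Rps19, the protein most often affected in Diamond-Blackfan anaemia in humans, read 1758, 2897 and 2651 in Rb-null cells, against 1782, 3209 and 2450 in control cells. The 2 groups covered nearly the same range, the third pair ran the other way, and the log2 difference was -0.04 (SE 0.31). Without Rb-null replicate 1 it was 0.17 and without control replicate 2 it was 0.12, so no direction can be given for Rps19.

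Rps6, which is phosphorylated by S6 kinases when mTOR is active, was dim on its own probe set, at 55.1, 122 and 32 in Rb-null cells, against 80.2, 170 and 20.2 in control cells (log2 difference -0.14, SE 0.54). Leaving out Rb-null replicate 3 gave 0.14 and leaving out control replicate 2 gave 0.36. The brightest of its probe sets shared with a pseudogene read 4431, 7392 and 4926 in Rb-null cells, against 5132, 8264 and 5563 in control cells. That probe set was lower in each pair, with a log2 difference of -0.22 (SE 0.28). Rps16 likewise read 22.9, 24.4 and 26.8 in Rb-null cells, against 27.2, 14.7 and 15.8 in control cells on its own probe set (0.23, SE 0.26). The brightest probe set of Rps16 shared with a pseudogene read 5836, 8189 and 6493 in Rb-null cells, against 6685, 9278 and 6480 in control cells (-0.17, SE 0.25). For these 2 genes the bright signal came from probe sets that cannot be assigned to 1 transcript, and for Rps16 its sign differed from that of the dim probe set.

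**Figure D3:**
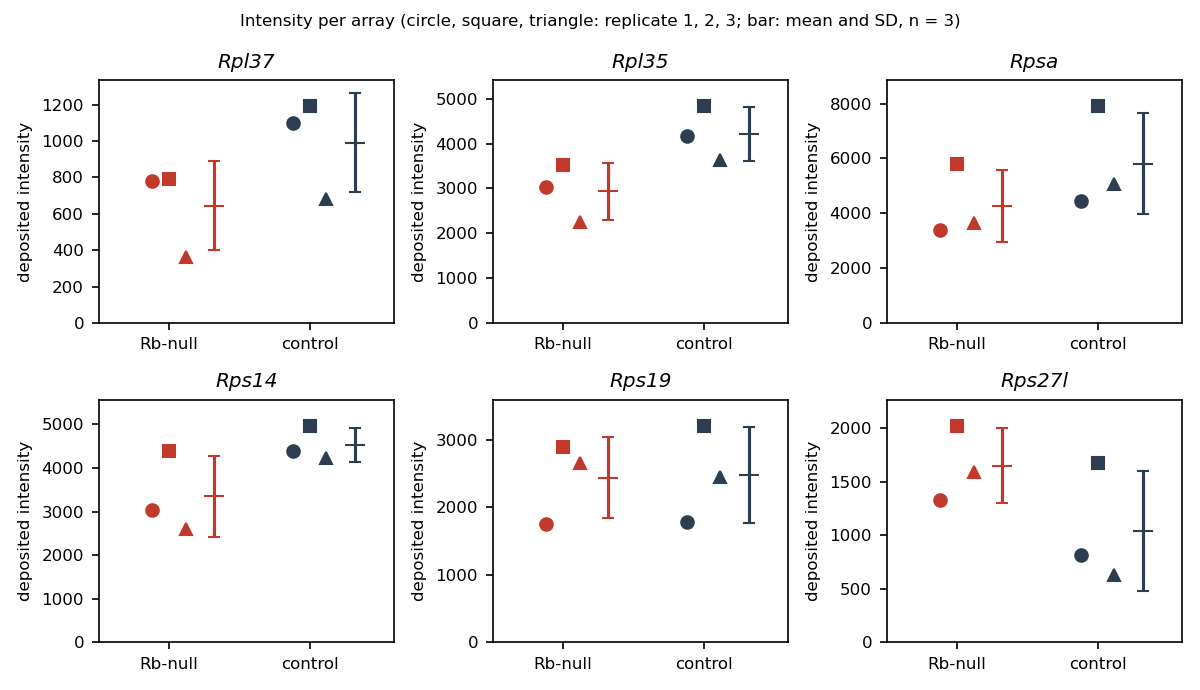
Deposited intensity of 6 ribosomal protein genes on each array, with Rb-null left of control. The circle, square and triangle are replicates 1, 2 and 3, and the bar gives the mean and SD of 3 arrays. Rps27l is the panel in which every Rb-null point lies above the control point of the same shape, and in Rps19 the groups cover the same range.

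Rps27l was the exception among the bright genes. It encodes a near copy of Rps27, a zinc-finger protein of the small subunit, and is induced by p53 in human cells. Rps27l read 1331, 2024 and 1590 on Rb-null arrays 1, 2 and 3, against 817, 1677 and 630 on control arrays 1, 2 and 3. It averaged 1648 ± 350 in Rb-null and 1042 ± 558 in control cells (SD, n = 3 each). The Rb-null array was the higher of each pair, by 0.60, 0.18 and 1.21 on the log2 scale, while the groups overlapped because control array 2 lay above 2 Rb-null arrays. The mean log2 difference of Rps27l was 0.66 (SE 0.33), a 1.58-fold higher level that did not pass limma's test (adjusted p = 1.00, and 0.251 with the replicate block). Its 3 probe sets gave 0.64, 0.60 and 0.66, and over 16 alternative settings the difference lay between 0.39 and 0.97.

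Its paralog Rps27 was dim on its own probe set, at 31.1, 24.9 and 21.8 in Rb-null cells, against 42.4, 29.6 and 26.6 in control cells (log2 difference -0.21, SE 0.25). The brighter probe set that Rps27 shares with its copy Rps27rt read 2389, 2655 and 1738 in Rb-null cells, against 3210, 3394 and 3023 in control cells. Every Rb-null value of that probe set lay below every control value, with a log2 difference of -0.54 (SE 0.26). The 2 paralogs thus had differences of opposite sign, though neither passed the test, and the contrast between them was not tested.

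A p53 half-site was found in 3 of the 40 promoter windows of ribosomal protein genes, those of Rps19, Rps27 and Rps27l (7.5%, against 9.55% of all genes). The windows of the paralog pair are shown because their differences have opposite signs. In the first the capitals mark the half-site of Rps27, in the second the CTTTC copies of Rps27, in the third the CCGGAAG of Rps27l, and in the last 2 the half-sites of Rps27l.
Rps27 (chr3:90213600-90213629, minus strand): ctccctacgaGAACATGCCTgtgagttcct
Rps27 (chr3:90213639-90213668, minus strand): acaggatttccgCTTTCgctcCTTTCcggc
Rps27l (chr9:66946084-66946113, plus strand): ccgcctctatcCCGGAAGttgctgaggggc
Rps27l (chr9:66946193-66946222, plus strand): ctttgggctcGGGCTTGCTTtccttcaggc
Rps27l (chr9:66946296-66946325, plus strand): gggcttgttgAGACTTGTCCgggcgacacg

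CTTTC was not found in the stretch searched around either annotated start of Rps27l. Both half-sites of Rps27l come from the window of its second annotated start, at positions -210 and -107 from it. Binding was not measured.

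The members that were not tested are copies with narrow expression, Rpl3l of striated muscle and Rpl39l of testis. Rpl39l read at most 28.9 and Rpl3l at most 28.7 on any array, and both fell below the filter. Rpl39, the common form at the exit tunnel, read 2317, 4207 and 2471 in Rb-null cells, against 3073, 4773 and 3577 in control cells. It was lower in each pair, with a log2 difference of -0.37 (SE 0.28). Rpl36a and Rpl36al could not be separated, since their probe sets carry both symbols. The brighter of these read 1341, 2661 and 1273 in Rb-null cells, against 1966, 3265 and 2405 in control cells (-0.64, SE 0.31).

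Probe sets that carry several symbols hold the rest of the ribosome. There were 110 with a ribosomal protein gene, of which 103 passed the filter, 71 of the large and 32 of the small subunit. Their median log2 difference was -0.36, with 97 negative and 6 positive, and the medians were -0.36 for the large and -0.34 for the small subunit. Of the 103, 86 were lower in each pair (83.5%, against 35.4% of all 642 several-symbol probe sets tested). In 15 the groups did not overlap and the Rb-null values were lower (14.6%, against 6.54% of the 642). Such probe sets can read a processed pseudogene as well as the gene, and several of them read the same gene, so they are not separate genes.

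limma called 0 of these 103 probe sets (0 of 642 in all). With the replicate block it called 15, all of the large subunit and all lower, which is 14.6% of the 103 against 9.66% of the 642. When the same fit was adjusted over all 22881 probe sets with a gene symbol, it called 0. The 15 therefore depended on the family of tests as well as on the block.

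The 15 included all 5 probe sets of Rpl14, a protein of the large subunit. The brightest read 2121, 1971 and 807 in Rb-null cells, against 3508, 3365 and 1682 in control cells, a log2 difference of -0.90 (SE 0.40). Both arrays numbered 3 were the lowest of their group, and the Rb-null array was the lower of every pair. All 3 called probe sets of Rpl36 were lower too, the brightest at 911, 1740 and 696 in Rb-null cells, against 1474, 2487 and 1458 in control cells (-0.84, SE 0.33). For that probe set the groups did not overlap after normalization, while for the other Rpl36 probe sets called they did. Rpl29, Rpl30, Rpl32, Rpl13, Rpl15 and Rpl37 made up the others. Rpl32 gave 969, 2577 and 1105 in Rb-null cells, against 1684, 3477 and 2080 in control cells (-0.77, SE 0.38), with array 2 the highest of each group. The Rpl37 probe set shared with Rpl37rt gave 1715, 2190 and 1088 in Rb-null cells, against 2518, 3078 and 2172 in control cells. Its log2 difference of -0.71 (SE 0.28) was the same as that of the Rpl37 probe set with 1 symbol. A brighter probe set shared with Rpl37rt, not called, read 2397, 3828 and 1588 in Rb-null cells, against 3077, 4438 and 2825 in control cells. It gave -0.45 (SE 0.32) with overlapping groups. A dim shared probe set, which read at most 73.1 on any array, gave -0.01 (SE 0.33).

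Where a gene had several probe sets of its own, their signs were usually shared. Of the 43 genes, 22 had more than 1 probe set past the filter, and 6 of those had probe sets of opposite sign, Rpl41, Rps18, Rps20, Rps3, Rps4x and Rps6. The positive probe sets of these 6 genes read at most 129 on any array. Of the 88 probe sets of the members past the filter, 76 were negative and 66 were lower in each pair (23.1% of all 1-symbol probe sets tested). Of the 67 with a mean log2 above 10, 64 were negative with a median of -0.35, and of the 21 dimmer ones 12 were negative with a median of -0.04. The lowest single value belonged to a second probe set of Rps9, which read 1128, 1427 and 649 in Rb-null cells, against 2013, 2213 and 1636 in control cells. The groups did not overlap there, with a log2 difference of -1.0 (SE 0.29), while the representative probe set of Rps9 gave -0.50 (SE 0.42).

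Ribosomal protein genes whose symbols do not follow the pattern were read beside the others. Of 7 such genes 4 were tested, with a median log2 difference of -0.09. Rps3a1, the small subunit protein eS1, read 5123, 5442 and 3926 in Rb-null cells, against 5869, 6174 and 4248 in control cells (-0.17, SE 0.27). It was lower in each pair by a small amount, and Rpl22l1 was described with its paralog. Fau read 2009, 3904 and 3758 in Rb-null cells, against 2055, 4186 and 3197 in control cells. Its log2 difference was -0.0007 (SE 0.35), with the third pair at 0.25. Rpl7l1, which read at most 115 on any array, gave 0.02 (SE 0.29).

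Factors that work with the ribosome had medians nearer to that of all genes. Of 32 tested initiation factor genes 13 were positive and 19 negative, with a median of -0.08. Of 8 tested elongation and nascent chain factor genes 4 were positive and 4 negative, with a median of -0.03. Of 9 ribosomal protein chaperones and loading factors 2 were positive and 7 negative, with a median of -0.06. Without the block limma called 0 genes in each of these lists, as it did among all genes. With the block, a variance trend and robust moderation it called 2 initiation factor genes, Eif3i and Eif3f, both lower, and 0 genes of the other 2 lists. Of all genes tested that fit called 1.39% lower.

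Within the initiation factors, subunits of eIF3, the complex that brings the small subunit to the mRNA, held the smallest p-values. Of 11 tested subunits 8 were negative, each lower in every pair. The other 3 were positive, Eif3a (0.22), Eif3b (0.15) and Eif3c (0.40), the last higher in every pair. Of all genes tested 54.6% were negative, 24.1% lower in every pair and 18.5% higher in every pair. The eIF3 subunits were set apart after their values were seen. Eif3i read 1004, 1429 and 1032 in Rb-null cells, against 1406, 2097 and 2132 in control cells (-0.73, SE 0.27). Eif3h read 509, 740 and 386 in Rb-null cells, against 658, 996 and 668 in control cells (-0.56, SE 0.27). Both were lower in each pair and did not overlap after normalization, but limma's adjusted p was 1.00 for each. With the block, a variance trend and robust moderation, limma called Eif3i lower (adjusted p = 0.0266) but not Eif3h. Among elongation factors Eef1b2, an exchange factor of eEF1A, had a difference of -0.60 (SE 0.39), and Naca, which binds nascent chains at the exit tunnel, had -0.42 (SE 0.34). Among the chaperones Heatr3, which in human cells helps to import RPL5 into the nucleus, had 1.13 (SE 0.47). Heatr3 was dim, at 67.9, 125 and 158 in Rb-null cells, against 35.9, 103 and 18.8 in control cells. Its groups overlapped, and pairs 1, 2 and 3 gave 0.76, 0.23 and 2.39. Tsr2, in yeast the chaperone of Rps26, had 0.45 (SE 0.26) on signals of at most 47.3, and averaging its probe sets turned this to -0.17.

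Genes of mTOR signalling and of TOP mRNA control were mostly positive, although 0 passed limma's test without the block. Of 17 tested genes 12 were positive and 5 negative, with a median log2 difference of 0.35 (45.4% of all genes tested were positive). In 11 the Rb-null array was higher in every pair (18.5% of all genes tested), and in 6 the groups did not overlap and were higher (5.13% of all genes tested). Ddit4, an inhibitor of mTOR induced by stress, read 377, 262 and 398 in Rb-null cells, against 75.4, 47.6 and 18.5 in control cells. All Rb-null values of Ddit4 lay above all control values, with a log2 difference of 2.60 (SE 0.38) and an adjusted p of 0.250 in limma. Larp1b, a relative of the TOP mRNA binder Larp1, read 993, 1069 and 729 in Rb-null cells, against 369, 452 and 296 in control cells. Its groups did not overlap either, with a log2 difference of 1.24 (SE 0.24) and an adjusted p of 0.372 in limma. Eif4ebp1, a repressor of cap-dependent translation that mTOR inactivates, was chosen after its values were seen. It read 715, 846 and 485 in Rb-null cells, against 224, 373 and 134 in control cells, again without overlap (1.49, SE 0.32, limma adjusted p = 0.433). With the replicate block, a variance trend and robust moderation, limma called 4 genes of the list, all higher (2.18% of all genes tested). These were Ddit4 (adjusted p = 0.0175), Larp1b (adjusted p = 0.0111), Eif4ebp1 (adjusted p = 0.0129) and Rheb. The list holds activators and repressors of mTOR alike, and transcript levels do not give the activity of the kinase.

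**Figure D4:**
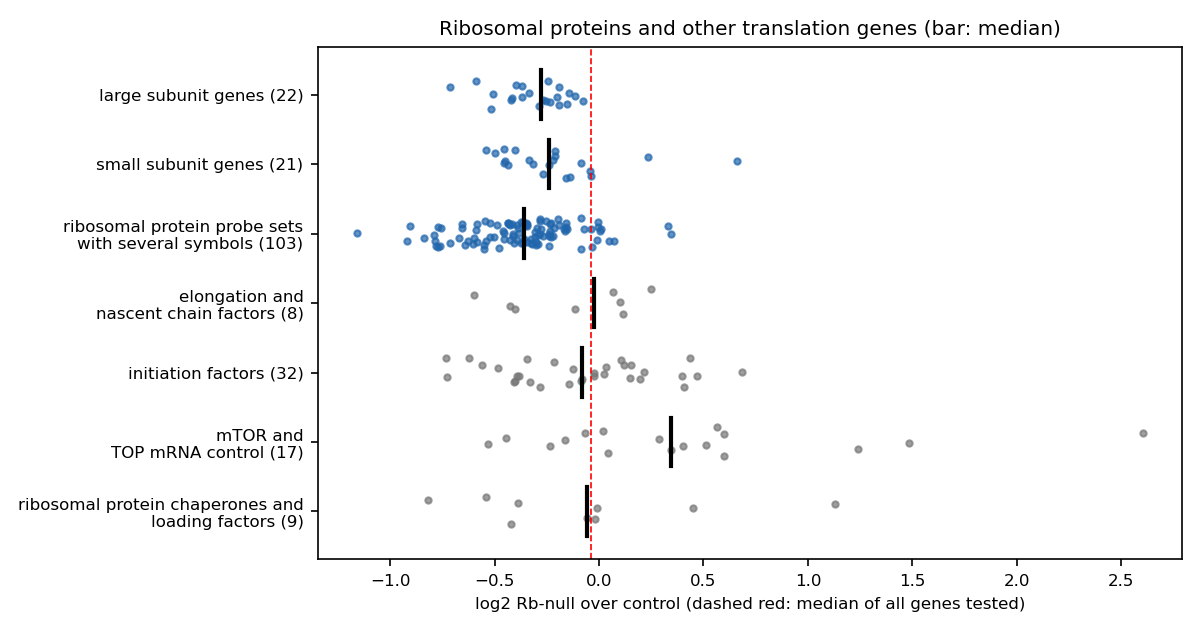
Log2 difference of Rb-null over control for each tested gene of the ribosomal protein subunits and the other translation lists, with the list median as a bar. Subunit genes lie mostly left of 0, and the genes of mTOR and TOP mRNA control mostly right of it, up to 2.60 for Ddit4.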

How the data were processed

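Each array's deposited column holds 1 linear intensity a probe set, and the sources used here do not give the summary method or scaling behind it. Per the labels, total RNA was labelled with biotin. Of 45101 probe sets, 64 controls, 4 empty ones and 1 above the scanner limit of 65535 were left out. Of the 45032 used, 34941 carried 1 gene symbol, 932 several and 9159 none. Because array medians of log2(value + 16) spanned 0.264, quantile normalization was applied. The filter kept means above the 40th percentile (log2 5.12), and the brightest probe set stood for its gene. The groups were compared by limma 3.58.1 in R 4.3.3 (2-sided, Benjamini-Hochberg over 13232 genes), and several-symbol probe sets were fitted separately. An exact permutation test of 3 against 3 arrays cannot go below p = 0.1. The script was tested on simulated data. Without the replicate block it recovered 0% of 2-fold and 33.4% of 4-fold changes, and with the block 81.2% and 99.6%. The tested ribosomal protein genes differed by less than 2-fold on their representative probe sets. Not passing the fit without the block therefore does not show that such a difference is absent. Replicate numbers pair the arrays: deviations of arrays with the same number correlated at 0.636, 0.615 and 0.653, against at most 0.0370 otherwise. The labels do not say what a number marks.

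The members, lists and rules were chosen with earlier results of these data known. Genes were named by rule: Rpl5, Rpl11, Rpl22, Rps6, Rps19 and Rps27l, up to 4 genes a subunit and direction with the smallest p, up to 2 genes a translation list, and the paralog pairs Rps27 with Rps27l, Rpl22 with Rpl22l1, Rpl36a with Rpl36al and Rpl39 with Rpl39l. Values of Rps9, Eif4ebp1, Rheb, other eIF3 subunits, the called several-symbol probe sets and genes at the ends of a range were chosen after they were seen.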

Additional observations from a re-analysis of the deposited data

How the results depend on the processing

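Alternatives covered scaling, offset, filter, choice of probe set, moderation, arrays left out and, added after seeing the data, cyclic loess. The replicate block with a variance trend and robust moderation called 3 ribosomal protein genes, where the other 16 alternatives, the replicate block alone among them, called 0. Of the several-symbol probe sets, the replicate block called 15, and with trend and robust moderation 68 of 103 (66.0%, against 27.3% of all 642). The other 14 alternatives called 0. The median over the ribosomal protein genes stayed negative in all 17 alternatives, between -0.45 and -0.18. Leaving out 1 array at a time gave the same range, with -0.45 without Rb-null replicate 2 and -0.18 without control replicate 2. The large subunit median lay between -0.45 and -0.18. The small subunit median lay between -0.44 and -0.14 when 1 array was left out (without Rb-null replicate 2 and without control replicate 2), and was -0.04 with probe sets that have no s, x or a ending. The median of all genes tested in the main fit was -0.04 as well. In the main fit Rpl37, Rpl35, Rps14 and Rps18 were represented by probe sets with an x ending. The share of negative genes was 73.7% to 95.3%. Of the 43 genes, 30 were negative in every setting, Rps16 and Rps27l positive in every setting, and 11 took both signs: Rpl4, Rpl12, Rpl14, Rpl27a, Rpl41, Rps3, Rps6, Rps18, Rps19, Rps20 and Rps25. Among genes named by rule, those that turned were Rps18 (0.23 without s, x or a probe sets), Tsr2 (-0.17 with the mean of its probe sets), Rps19 (-0.22 to 0.17 with 1 array left out, 0.12 without control replicate 2) and Rps6 (-0.68 to 0.36, 0.14 without Rb-null replicate 3), and the cause was not tested. Dim probe sets limit what can be said of Rpl12, Rpl14, Rps6, Rps16, Rps25 and Rps27. The Rps18 probe set that gave 0.23 was dim too, at most 50.5 on any array.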
